A study of Homo sapiens with 6 samples.

Results

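The genes described here code for proteins that recognise DNA or RNA in the wrong place of a cell, together with the adaptors and the kinase that act directly behind them. They were chosen by name as CGAS, STING1, TBK1, RIGI, IFIH1, DHX58, MAVS, TLR3, IFI16 and TREX1, and each was measured by a transcript cluster (the probes that the array design summarises to 1 value) annotated with that gene symbol alone. Of these 10 genes, 9 were measured among 33616 genes in all. TREX1, the exonuclease that degrades DNA in the cytosol, was represented only by a cluster shared with ATRIP, so no level is reported for it.

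The cells were LN229R, a derivative of the human glioblastoma line LN229 that had been made resistant to temozolomide (TMZ), an alkylating drug used against glioma. The sample labels name the line LN229, whereas the design text and the methods name LN229R. All cells carried CAS9 after viral infection and puromycin selection for 7 days and were then infected for 24 h with an sgRNA virus. The ATRX NC group (3 arrays) received non-targeting sgRNA and was labelled ATRX wild type, and the ATRX KO group (3 arrays) received sgRNAs against ATRX, a chromatin remodeler that helps to deposit histone H3.3. The sources do not say whether the ATRX KO cells were a clone or a pool, how long they were kept after infection, or whether the 3 arrays of a group came from separate cultures, and p-values thus refer to the spread from array to array, which may be technical. Both groups had been exposed to virus carrying foreign nucleic acid, and cells without virus were not among the samples.

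Cells recognise foreign or misplaced nucleic acid through several routes. The enzyme cGAS (gene CGAS) binds double-stranded DNA and makes the messenger cGAMP, which activates the adaptor STING (STING1), whereas the helicases RIG-I (RIGI) and MDA5 (IFIH1) bind double-stranded RNA and signal through the adaptor MAVS on mitochondria. LGP2 (DHX58) is their relative without a signalling domain, and TLR3 binds double-stranded RNA inside endosomes and so is not a cytosolic protein in the strict sense. The STING and MAVS routes meet at the kinase TBK1, which phosphorylates IRF3 and thereby turns on type I interferon. Interferon in turn is known to raise the transcripts of several of the sensors, and in gliomas STING1 is often silenced by DNA methylation. ATRX itself is one of the genes most often lost in gliomas.

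The knockout design was checked first on the targeted gene. The log2 level of ATRX was 10.49, 10.22 and 10.14 with non-targeting sgRNA and 8.47, 8.67 and 8.75 with sgRNAs against it. The groups lay apart, and ATRX KO retained 31.8% of the ATRX NC level, a log2 fold change of -1.65 (SE 0.16, adjusted p = 0.000561, limma). The 6 arrays had median levels over the genes tested between 6.035 and 6.173, and their correlation across genes was 0.9904 to 0.9923 within groups and 0.9802 to 0.9812 between them. No detection call or background level accompanied the values, so a gene at a low level cannot be told from background here. The glial lineage markers GFAP (5.26 in ATRX NC and 5.30 in ATRX KO) and OLIG2 (4.93 and 4.91) were below the median gene level of 6.1. The other glioma and glial markers listed were above it in both groups. S100B was at 14.59 in ATRX NC and 11.67 in ATRX KO, NES at 12.45 and 11.44, and SOX2 at 10.71 and 11.16. CD44 was at 13.97 and 14.23, and EGFR at 8.61 and 9.55. VIM, the intermediate filament of mesenchymal and glial cells, was at 17.05 and 17.08. Of the 8 glioma and glial markers 2 were lower in ATRX KO, S100B at a log2 fold change of -2.93 (adjusted p = 3.36e-05) and NES at -1.02 (adjusted p = 0.00482), and 1 was higher, EGFR at 0.94 (adjusted p = 0.0072). Some markers of other cell types differed between the groups, while others did not pass the test. The summed linear intensity of 8 fibroblast markers was 5038 to 5241 in the ATRX NC arrays and 41140 to 57350 in the ATRX KO arrays. LUM was the brightest of them, at 11.65 and 15.17. Of the 8, 4 were higher (FAP, LUM, DCN and PDGFRB). The other 4 did not pass, with COL1A2 at 0.68, THY1 at 0.48, ACTA2 at -0.09 and COL1A1 at -0.31. The sum of 9 immune markers was 571.2 to 643.9 in ATRX NC and 1407 to 1786 in ATRX KO. Only 1 marker, CD68, was higher (6.62 and 10.05), and the other 8 did not pass. The pan-leukocyte gene PTPRC was at 5.80 and 5.88. The sum of 4 endothelial markers was 190.6 to 198.4 and 242.3 to 296.6, with PECAM1 higher and the other 3 not past the test. The part of these markers in the results on the sensors was not tested.

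The stretches of promoter in which interferon-type motifs were found are shown for the 3 genes of the set with the largest fold changes, of which TLR3 and RIGI passed the test described next and IFIH1 did not. The sequences are RefSeq's (GRCh38.p14), written 5′ to 3′ on the strand of the gene, and capitals mark the motif matches. The stretches are chr4:186069096-186069165 (plus strand) for TLR3, chr9:32526256-32526411 (minus strand) for RIGI and chr2:162318689-162318859 (minus strand) for IFIH1.
TLR3: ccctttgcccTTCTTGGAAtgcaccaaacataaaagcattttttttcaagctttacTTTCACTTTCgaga
RIGI: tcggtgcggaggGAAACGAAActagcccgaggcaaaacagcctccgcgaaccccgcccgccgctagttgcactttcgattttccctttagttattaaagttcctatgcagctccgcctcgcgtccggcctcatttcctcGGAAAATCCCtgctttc
IFIH1: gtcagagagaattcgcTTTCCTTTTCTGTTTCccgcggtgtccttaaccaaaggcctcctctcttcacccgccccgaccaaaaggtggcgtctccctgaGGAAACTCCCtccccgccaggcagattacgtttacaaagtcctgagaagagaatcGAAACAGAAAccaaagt

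For CGAS, STING1 and DHX58 no promoter window was available, so they were not searched for motifs. A promoter window of 300 bases (250 before and 50 after the annotated start) was found for 7 of the 10 genes, in 8 windows because IFI16 had 2. Each was searched on both strands for the interferon-stimulated response element (ISRE, taken as a repeat of GAAA with any 2 bases between the copies), which IRF proteins bind, for the gamma-activated site TTCNNNGAA of STAT dimers, and for the NF-kappaB consensus. The same repeat with 1 base between the copies (GAAANGAAA) was added after the RIGI window had been seen. TLR3 held an ISRE on the minus strand across its start (positions -4 to 6) and gamma-activated sites at -50 to -42 and -178 to -170, the latter outside the stretch shown. IFIH1 held an ISRE at -21 to -12, and on the minus strand at -153 to -144 and -159 to -150, which overlap each other. RIGI had no ISRE match but held GAAANGAAA at -203 to -195. An NF-kappaB match lay at -76 to -67 on the minus strand in both RIGI and IFIH1. One IFI16 window held GAAANGAAA at -54 to -46, and none of the searched motifs occurred in the windows of TBK1, MAVS and TREX1 or in the other IFI16 window. Over all 35116 windows of this length, 3.57% held the ISRE letters, 3.12% GAAANGAAA, 7.66% TTCNNNGAA and 11.3% the NF-kappaB consensus, so these letters also occur in many promoters outside the set. The matches are descriptions of sequence, and binding was not measured.

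The comparison of ATRX KO with ATRX NC asked which genes differ when ATRX is disrupted in TMZ-resistant cells. Of the 9 sensor genes measured, TLR3 and RIGI rose in ATRX KO, by 2.53-fold and 2.21-fold, and 0 fell. Over all genes, 5.79% were called higher and 3.72% lower at an adjusted p below 0.05, and over protein-coding genes 7.97% and 5.77%. In 6 of the 9 genes (TLR3, RIGI, IFIH1, DHX58, MAVS and IFI16) all 3 ATRX KO arrays lay above all 3 ATRX NC arrays, against 19% of all genes and 22.7% of protein-coding genes. At an unadjusted p below 0.05 there were 4 sensor genes higher, where 15.5% of all genes were. The median log2 fold change of the 9 genes was 0.39, and that of all genes was 0.07. In RNA from whole cultures, a change in the number of cells that express a gene and a change in RNA per cell cannot be told apart.

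**Figure D1:**
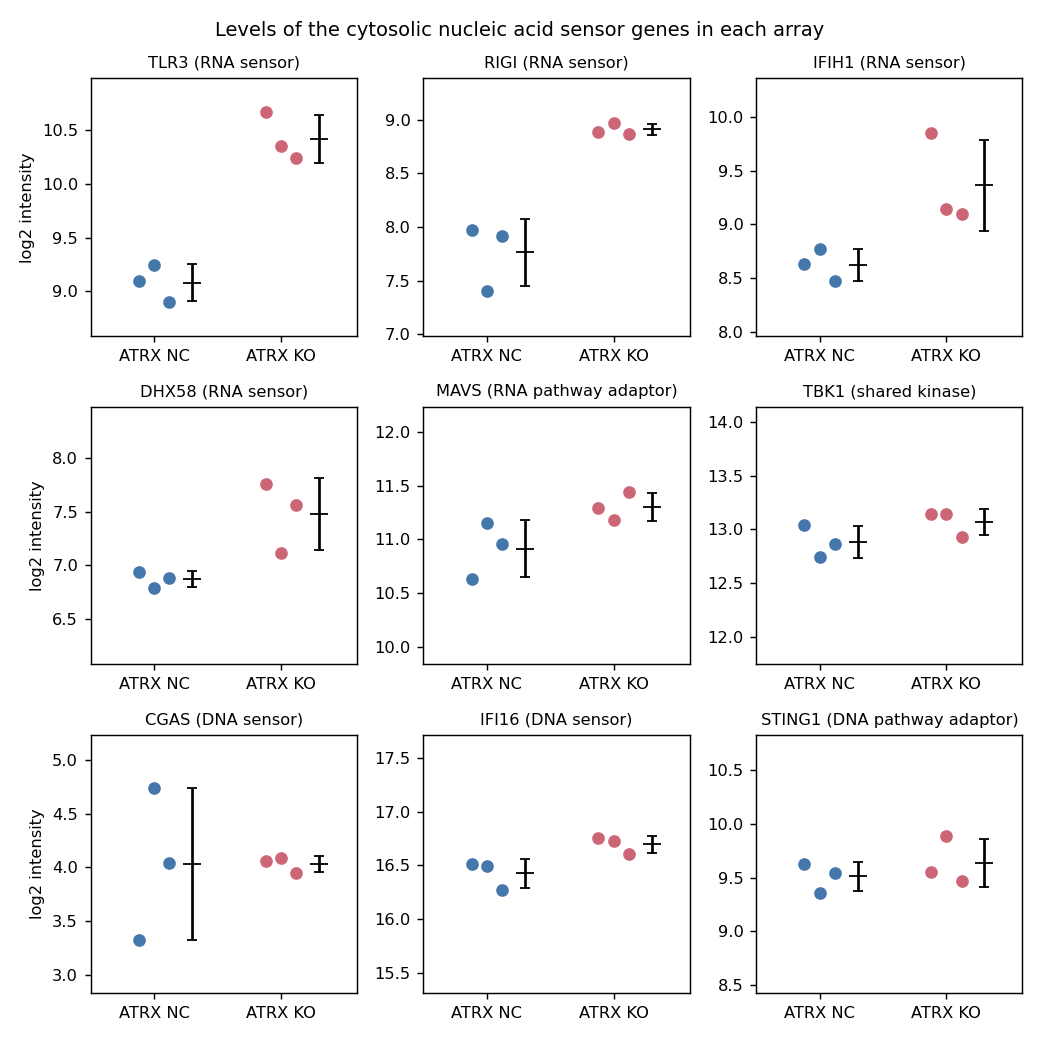
Deposited log2 intensity of the 9 measured sensor genes in each of the 6 arrays, with ATRX NC and ATRX KO arrays as separate points and a bar for the mean ± SD of each group (n = 3). The groups are separated for TLR3, RIGI, IFIH1, DHX58, MAVS and IFI16 and overlap for TBK1, STING1 and CGAS.

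Among the 9 measured genes of the set TLR3 had the largest fold change. TLR3, the endosomal receptor for double-stranded RNA, was at 9.10, 9.25 and 8.90 on the log2 scale in ATRX NC and at 10.67, 10.36 and 10.24 in ATRX KO. Every ATRX KO array was thus more than 1 log2 unit above the ATRX NC mean of 9.09 ± 0.18 (SD, n = 3), and the ATRX KO mean was 10.43 ± 0.22 (SD, n = 3). The log2 fold change was 1.34 (SE 0.18, 95% interval 0.94 to 1.74, adjusted p = 0.00247). TLR3 passed the test under all 15 alternative ways of processing, with fold changes between 1.22 and 1.43 on the log2 scale and adjusted p between 3.21e-05 and 0.0319.

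RIGI codes for the helicase that recognises the 5′ triphosphate ends of short double-stranded RNA. Its log2 levels were 7.97, 7.40 and 7.92 in ATRX NC and 8.89, 8.97 and 8.87 in ATRX KO. The ATRX KO arrays differed little among themselves (8.91 ± 0.06, SD, n = 3), whereas the second ATRX NC array was lower than the others of its group (7.76 ± 0.32, SD, n = 3). RIGI rose by 1.15 on the log2 scale (SE 0.19, 95% interval 0.72 to 1.57, adjusted p = 0.00703). Leaving out any array left the adjusted p between 0.0142 and 0.0313, and RIGI missed the threshold only with the methods' t-test, at an adjusted p of 0.0545.

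IFIH1 codes for MDA5, the helicase that binds long double-stranded RNA. It was at 8.63, 8.77 and 8.47 in ATRX NC and at 9.85, 9.14 and 9.10 in ATRX KO. The groups did not overlap, but the first ATRX KO array was well above the other two. The log2 fold change was 0.74 (SE 0.22, 95% interval 0.22 to 1.25) and did not pass the test (adjusted p = 0.0822), and without that array it was 0.49 (adjusted p = 0.183). IFIH1 passed under 3 of the 15 alternatives, at an adjusted p of 0.028 among genes above the median level, 0.0432 among protein-coding genes and 0.0211 with a variance trend and a robust fit.

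DHX58 codes for LGP2, which assists MDA5 and can restrain RIG-I. Its levels were 6.94, 6.79 and 6.88 in ATRX NC and 7.76, 7.11 and 7.56 in ATRX KO. The second ATRX KO array lay nearest to the ATRX NC arrays, which were close together (6.87 ± 0.08, SD, n = 3, against 7.48 ± 0.33). The log2 fold change of 0.61 (SE 0.19, 95% interval 0.17 to 1.04) did not pass (adjusted p = 0.0911). Without the second ATRX KO array it passed at an adjusted p of 0.0409, as it did among genes above the median level (0.0297) and among protein-coding genes (0.046). The highest adjusted p of IFIH1 over the alternatives was 0.218 and that of DHX58 was 0.248.

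**Figure D2:**
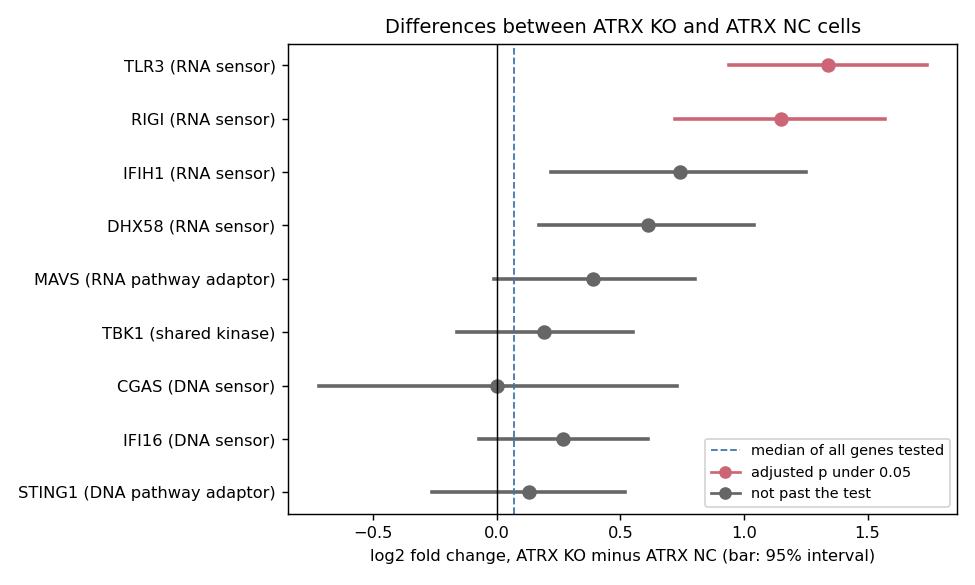
Log2 fold change of ATRX KO over ATRX NC for the 9 measured sensor genes, with bars for the 95% interval of the limma fit (3 arrays in each group) and a dashed line at the median of all genes tested (0.07). The intervals of TLR3, RIGI, IFIH1 and DHX58 lie above 0 and those of MAVS, IFI16, TBK1, STING1 and CGAS include 0. Only TLR3 and RIGI passed the test.

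The adaptor and the kinase behind the sensors did not pass the test. MAVS, the mitochondrial adaptor of RIG-I and MDA5, was at 10.63, 11.15 and 10.96 in ATRX NC and at 11.29, 11.18 and 11.44 in ATRX KO. Its lowest ATRX KO array was barely above its highest ATRX NC array, and the log2 fold change of 0.39 (SE 0.18, 95% interval -0.01 to 0.80) had an adjusted p of 0.222. A second MAVS cluster, with lower levels, was at 9.90, 9.96 and 10.16 in ATRX NC and 10.38, 10.36 and 10.40 in ATRX KO, a difference of 0.37 (SE 0.15, adjusted p = 0.168). TBK1, the kinase shared by the STING and MAVS routes, was at 13.04, 12.74 and 12.86 in ATRX NC and at 13.14, 13.14 and 12.93 in ATRX KO. Its groups overlapped, and the interval of the log2 fold change (0.19, SE 0.16) ran from -0.16 to 0.55 (adjusted p = 0.508).

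On the DNA side, 0 of the 3 genes measured passed the test. IFI16, a nuclear and cytosolic DNA sensor of the PYHIN family, was at 16.51, 16.49 and 16.27 in ATRX NC and at 16.75, 16.73 and 16.60 in ATRX KO. All ATRX KO arrays were above the ATRX NC arrays, but the log2 fold change was only 0.27 (SE 0.15, 95% interval -0.07 to 0.61, adjusted p = 0.316), and it fell to between 0.14 and 0.17 when the arrays were rescaled. With a variance trend and a robust fit IFI16 passed, at an adjusted p of 0.036.

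STING1, the cGAMP receptor of the endoplasmic reticulum, was at 9.63, 9.36 and 9.54 in ATRX NC and at 9.55, 9.89 and 9.47 in ATRX KO. The groups overlapped, with the second ATRX KO array the highest of the 6. The log2 fold change was 0.13 (SE 0.17, adjusted p = 0.71), and its 95% interval of -0.26 to 0.52 leaves room for a moderate change in either direction. CGAS was at 3.32, 4.74 and 4.04 in ATRX NC and at 4.06, 4.09 and 3.95 in ATRX KO. The 3 ATRX NC arrays spanned the whole range of the ATRX KO arrays, and CGAS was the 1 sensor gene removed by a filter on genes above the median level. Its log2 fold change of 0.00 (SE 0.32) had an interval from -0.72 to 0.73 (adjusted p = 0.998), so a change nearly as large as that of IFIH1 in either direction lies within it. Rescaling turned its sign, to between -0.09 and -0.04. Whether the fold changes of the RNA sensors differ from those of the DNA sensors was not tested.

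**Figure D3:**
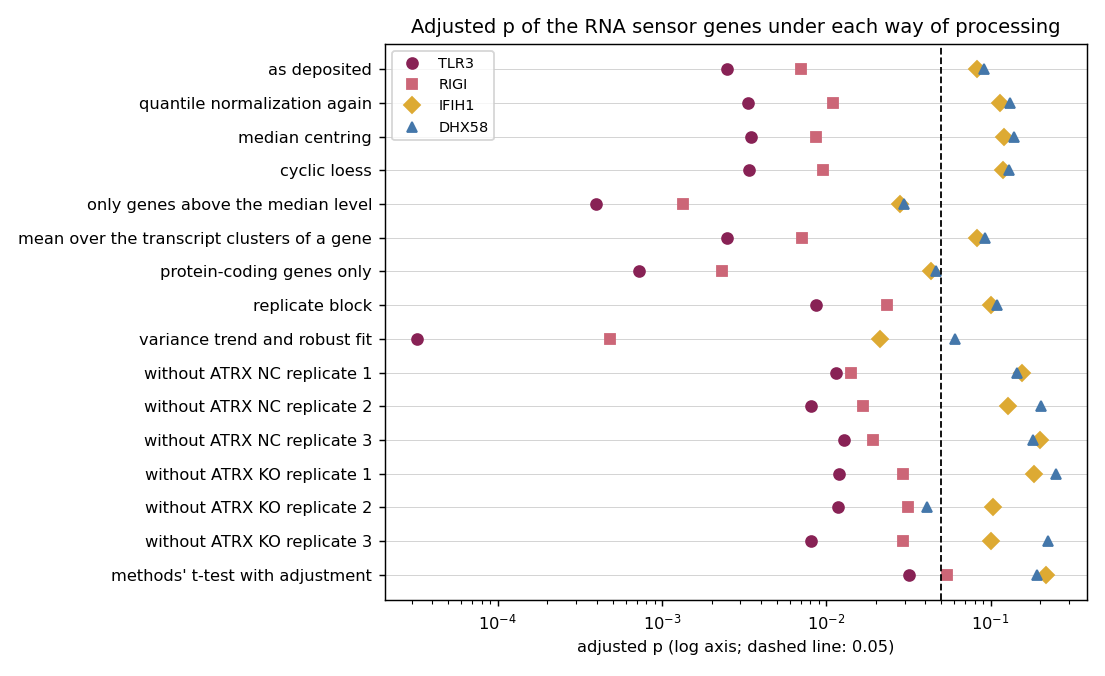
Adjusted p (log axis, dashed line at 0.05) of the 4 genes TLR3, RIGI, IFIH1 and DHX58 with the values as deposited and under each of 15 alternative ways of processing. TLR3 is below 0.05 in every row, RIGI in every row except the methods' t-test (0.0545), and IFIH1 and DHX58 in 3 alternatives each.

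Around the sensors, 140 genes of the same pathways were listed by role, of which 128 were measured by a cluster of their own. Of these, 28 were higher in ATRX KO, 4 were lower and 96 did not pass, with a median log2 fold change of 0.21. When each array was left out in turn, 16 of the 28 passed every time, and 0 of the 4 lower genes did. The lists were put together with results of these data known. Beside these counts and those of each list stand shares of 5.79% higher and 3.72% lower over all genes. Over protein-coding genes the shares were 7.97% and 5.77%.

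The list of other nucleic acid sensors had 5 of 20 measured genes higher and 0 lower (median log2 fold change 0.11). OAS1, which makes the 2-5A messenger when it binds double-stranded RNA, was at 6.90, 6.90 and 7.22 in ATRX NC and 9.41, 8.75 and 9.11 in ATRX KO, a log2 fold change of 2.08 (SE 0.20, adjusted p = 0.00053). AIM2, the DNA sensor of an inflammasome, was at 8.44, 8.55 and 8.57 in ATRX NC and 10.28, 10.48 and 10.08 in ATRX KO (1.76, SE 0.16, adjusted p = 0.000347). For both genes every ATRX KO array was more than 1 log2 unit above every ATRX NC array. OAS3 rose by 1.61 and OAS2 by 1.28 (adjusted p = 0.00178 and 0.00272). OAS2 was below the median gene level in both groups (means of 4.16 and 5.43), so its distance from background is not known and its fold change may be understated. The remaining genes of this paragraph were named after their values were seen. EIF2AK2, the RNA-dependent kinase PKR, was the fifth (0.63, adjusted p = 0.034), and it did not pass under any of the 3 rescalings or once any 1 array was left out (up to 0.109). OASL was at -0.17 (adjusted p = 0.638), and the other endosomal receptors TLR7, TLR8 and TLR9 were at -0.63, 0.12 and 0.22 (adjusted p = 0.208, 0.737 and 0.577). OASL and these receptors were below the median gene level in both groups, so a change could have been missed.

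Sensor cofactors and adaptors had 4 of 16 higher and 0 lower (median 0.31). PQBP1, which assists cGAS on retroviral DNA, rose by 1.08 (SE 0.15, adjusted p = 0.0038), and ZC3HAV1, a zinc finger protein that binds CpG-rich viral RNA, by 0.83 (SE 0.14, adjusted p = 0.00934). TRIM56, a ubiquitin ligase of the STING and TLR3 routes, and DDX60, a helicase linked to RIG-I, were called at 0.85 and 0.58 (adjusted p = 0.0382 and 0.0475), and both calls were lost under each of the 3 rescalings and when any array was left out (up to 0.122 and 0.129). The adaptor of TLR3, TICAM1, was named after its value was seen. It was at -0.14 and did not pass (adjusted p = 0.778), with means below the median gene level (5.67 in ATRX NC and 5.53 in ATRX KO).

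In the TBK1 and IKK kinase complexes 3 of 9 genes were higher and 0 lower (median 0.21). OPTN, an autophagy receptor that binds TBK1, rose by 1.34 (SE 0.22, adjusted p = 0.00684). It missed the threshold with the methods' t-test after adjustment (0.0673, against 0.00524 before it). TANK, a scaffold of TBK1, and IKBKE, its closest relative among kinases, were called at 0.79 and 0.74 (adjusted p = 0.0317 and 0.0447). Neither held under any of the 3 rescalings, IKBKE lost its call without any 1 array (up to 0.125), and TANK lost it in 5 of 6 such fits, all but that without the third ATRX NC array (up to 0.0956).

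Enzymes that remove or edit nucleic acids, and so limit what the sensors meet, had 4 of 17 higher and 1 lower (median 0.09). SAMHD1, a dNTP hydrolase, rose by 1.41 (SE 0.15, adjusted p = 0.000842), and ADAR, which edits adenosine in double-stranded RNA and so keeps MDA5 from binding it, by 1.04 (SE 0.17, adjusted p = 0.0069). The lysosomal nucleases RNASET2 and PLD3 were called at 1.32 and 1.24 (adjusted p = 0.0177 and 0.0214). RNASET2 lost its call without the second ATRX NC or the first or the third ATRX KO array (up to 0.0642), and PLD3 without the first or the third array of either group (up to 0.0805). PNPT1, a mitochondrial RNA nuclease named after its value was seen, was lower by this test (-0.73, adjusted p = 0.0222) but passed in only 1 of the 6 fits with an array left out, that without the first ATRX NC array (up to 0.0761).

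Around STING itself, 0 of 7 trafficking genes passed in either direction (limma, adjusted p below 0.05), and 1 had an unadjusted p below 0.05 (median 0.18). Genes of cGAMP transport and breakdown had 0 of 10 higher and 2 lower, with a median of -0.44. P2RX7, an ATP-gated channel that lets cGAMP into cells, was at -1.37 (SE 0.29, adjusted p = 0.0218), and ENPP3, a phosphodiesterase that degrades cGAMP outside cells, at -0.69 (SE 0.16, adjusted p = 0.0347). Each of these calls held in only 1 of the 6 fits with an array left out (without the third ATRX KO array for P2RX7 and the second for ENPP3, with p up to 0.0779 and 0.115). ENPP1, the main cGAMP hydrolase, and SMPDL3A were both at -0.61 and did not pass (adjusted p = 0.0989 and 0.0952).

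Negative regulators of the sensors had 5 of 14 higher and 1 lower (median 0.31). TNFAIP3, the ubiquitin-editing enzyme A20, rose by 1.93 (SE 0.19, adjusted p = 0.000529). USP18, which removes ISG15 and blocks the interferon receptor, rose by 1.75 (SE 0.19, adjusted p = 0.000933), and CYLD, a deubiquitinase that acts on RIG-I, by 1.25 (SE 0.15, adjusted p = 0.00136). TAX1BP1, a partner of A20, was the 1 gene called lower (-0.96, adjusted p = 0.0178), a call lost without the second array of either group or the third ATRX KO array (up to 0.0696). TRIM38 and RNF5, both named after their values were seen, were called at 0.88 and 0.70 (adjusted p = 0.02 and 0.042). TRIM38 lost its call without the second or the third ATRX NC or the first or second ATRX KO array (up to 0.0709). RNF5 lost its call under each of the 3 rescalings and without any 1 array (up to 0.123), and its other transcript cluster moved the opposite way, at -0.48.

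Downstream of TBK1, 2 of 9 transcription factors and kinases were higher and 0 lower (median 0.32). IRF1 was at 6.10, 6.47 and 6.24 in ATRX NC and 9.45, 9.21 and 9.41 in ATRX KO, a log2 fold change of 3.09 (SE 0.16, adjusted p = 2.47e-05). IRF9, a transcription factor of the interferon response, rose by 2.14 (SE 0.15, adjusted p = 9.85e-05). Every array of ATRX KO was above every array of ATRX NC for both genes. IRF3, the substrate of TBK1, had a log2 fold change of 0.45 and IRF7, named after its values were seen, one of 0.05 (adjusted p = 0.278 and 0.899). Their mean levels were 4.05 and 4.5 for IRF3 and 3.52 and 3.57 for IRF7 in ATRX NC and ATRX KO, below the median gene level, so a change in either gene could have been missed.

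Of the interferon genes and receptors 1 of 15 was higher and 0 were lower (median 0.06). It was IL10RB, a receptor chain for interferon lambda, at 0.76 (adjusted p = 0.015), and it passed in only 1 of the 6 fits with an array left out, that without the third ATRX NC array (up to 0.0539). IFNB1, the gene of interferon beta and named after its values were seen, was at 4.99, 4.47 and 4.88 in ATRX NC and at 4.53, 4.89 and 4.68 in ATRX KO. The groups overlapped, and the log2 fold change was -0.08 (SE 0.19, 95% interval -0.51 to 0.35, adjusted p = 0.848). Without a background level, whether IFNB1 was transcribed in either group cannot be read from these values.

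Among 11 output genes of the pathway 4 were higher and 0 lower (median 0.61). IFIT3 and IFI44, both interferon-induced, rose by 2.03 and 1.91 (adjusted p = 0.00101 and 0.000302). IFIT1, which binds RNA without a methylated cap, and the chemokine CCL5 were called at 1.44 and 0.86 (adjusted p = 0.036 and 0.0165). IFIT1 lost its call without the second ATRX NC or any ATRX KO array (up to 0.106), and CCL5 without the first or second ATRX KO array (up to 0.0639). CXCL10, ISG15 and MX1, named after their values were seen, were at 0.13, 0.32 and -0.15 and did not pass (adjusted p = 0.748, 0.261 and 0.702). MX1 had means of 6.82 in ATRX NC and 6.67 in ATRX KO, above the median gene level. The means of CXCL10 (4.54 in ATRX NC and 4.67 in ATRX KO) and CCL5 (4.96 and 5.82) were below the median gene level. Those of ISG15 (5.86 and 6.19) and IFIT1 (6.02 and 7.46) were below it in ATRX NC only. The distance of CXCL10, CCL5, ISG15 and IFIT1 from background is not known.

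**Figure D4:**
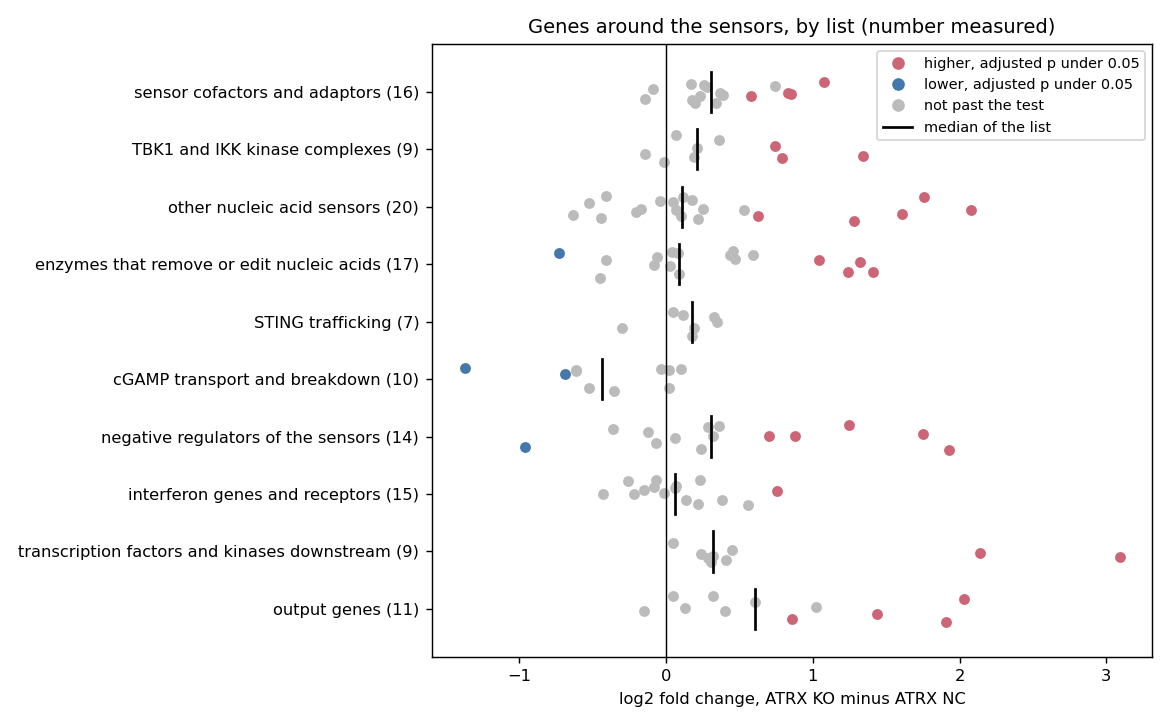
Log2 fold change of ATRX KO over ATRX NC for 128 genes around the sensors, 1 row of points for each list, with calls at an adjusted p below 0.05 in colour and the median of each list as a vertical line. The rightmost points are IRF1 at 3.09 and IRF9 at 2.14, and the list of cGAMP transport and breakdown has the lowest median, -0.44.

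The genes whose pattern over the 6 arrays was most like that of TLR3 were sought among the 10998 genes that code for protein and exceeded the median level, as a description and with no test. MAZ had the highest Pearson correlation (0.9992), followed by NUTF2 (0.9983) and USP40 (0.9981), with log2 fold changes of 0.66, 0.32 and 1.83. A correlation of at least 0.95 was reached by 665 of these genes. The 6 points are shared with the comparison of the groups, so any gene that separates ATRX KO from ATRX NC with little spread correlates with TLR3.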

How the data were processed

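RNA of ATRX NC and ATRX KO cells was measured on 3 arrays each. The authors deposited log2 intensities, normalized by their methods with the quantile algorithm of limma, with versions and any background correction not given in the sources used here. In the methods the platform is Agilent. However, the labelling kits named in the labels include an Affymetrix kit, and the transcript clusters carry identifiers of Affymetrix form. Arrays have no read depth, and their number limits the precision. Of 135748 transcript clusters, 36176 had 1 symbol in the platform annotation, 1119 several and 98453 none. Symbols were updated through Entrez numbers to RefSeq (25516 clusters). A gene with several clusters was represented by the cluster of highest mean level.

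Groups came from the labels. All 33616 genes were fitted with lmFit and eBayes (limma 3.58.1, R 4.3.3), called at a Benjamini-Hochberg adjusted p below 0.05 over all genes, after a test on simulated data. Fold changes are differences of log2 intensity, and intervals are 95% intervals of that fit. The members and lists were chosen with earlier results of these data known. Named genes are every member, ATRX and up to 4 genes of each list with the smallest p, with cell type markers taken from their lists, and other pathway genes are marked as chosen after their values were seen. Motifs were searched in RefSeq promoters (GRCh38.p14). Alternatives were 3 rescalings, a filter on dim genes, the mean over clusters, protein-coding genes only and the replicate number as block. Others were a robust fit with a variance trend, each array left out, and the methods' t-test. The p of that t-test was adjusted as in the main fit, a step that the methods do not describe.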

Additional observations from a re-analysis of the deposited data

How the results depend on the processing

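The 2 sensor calls (TLR3 and RIGI) became 4 among genes above the median level, 4 among protein-coding genes and 4 with a variance trend and a robust fit. They became 1 with the methods' t-test after adjustment, and were 2 to 3 with an array left out. Before adjustment, the t-test p was below 0.05 for TLR3, RIGI, IFIH1, DHX58 and IFI16. Over all genes, 1947 higher and 1251 lower calls became 3051 and 1909 above the median level, 3207 and 1934 with the trend and robust fit, 1224 and 771 with the methods' t-test (4650 and 2775 before adjustment) and 1037 to 1354 and 739 to 836 with an array left out. With the replicate number as a block the counts were 1255 and 804, and this block changed no sensor call. The deviations of arrays with the same number from their group means correlated at -0.02293, -0.03892 and -0.004252. Whether such arrays shared a culture or batch is not stated in the sources, and a correlation over all genes cannot settle it. The 28 pathway genes called higher were 16 to 21 with an array left out, 19 with the methods' t-test and 35 with the trend and robust fit, and the 4 called lower were 0 to 2, with 7 after quantile normalization again, 10 above the median level, 2 with the replicate block, 11 with the trend and robust fit and 1 with the t-test. Rescaling lowered the share of higher calls from 60.9% to 48.7% (quantile), 47.7% (median centring) and 49.2% (cyclic loess), with the median log2 fold change of all genes moving from 0.07 to between -0.02 and 0.00. CGAS turned sign under quantile normalization again (-0.05), median centring (-0.09), cyclic loess (-0.04) and with an array left out (-0.35 to 0.36). With an array left out, TLR8 ranged from -0.01 to 0.20, TLR9 from -0.01 to 0.35, IFNB1 from -0.23 to 0.03 and IRF7 from -0.05 to 0.16, and IRF7 was at -0.04 with median centring. None of these genes passed the test. The cause of these shifts was not tested.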
